A study of Mus musculus with 2 samples.

Results

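The RNAs described here were 8 long noncoding RNAs of the trigeminal ganglion (TG), taken by symbol from the 39098 gene symbols of the deposited tables: Bc1, Meg3, Malat1, Snhg11, Neat1, Miat, Rian and Mirg. All 8 were listed in both libraries. They were selected on RNA levels of these same libraries, seen in earlier results, so their levels are given as a description and carry no test. The study compared right TGs of male C57BL/6 mice of 5 to 8 weeks, without any genetic change, 7 days after an injection into the right vibrissal pad. The CFA group received 20 μL of complete Freund's adjuvant mixed 1:1 with saline, an oil emulsion of killed mycobacteria that inflames the skin. The control group is called untreated in the labels and saline-injected in the study's methods. Each condition was 1 BD Rhapsody library (microwell capture of single cells with molecular barcodes on oligo-dT beads), and the number of mice in a library was not given. Differences between the conditions therefore have no replicate check, condition and library cannot be told apart, and no p-value was computed.

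The control library held 7298 cells with 48916096 UMIs (unique molecular identifiers, each standing for 1 captured RNA molecule), and the CFA library held 4080 cells with 22096268 UMIs. After the filters, 835 control and 424 CFA cells were gated as neurons from raw UMIs of Tubb3, Snap25, Elavl4 and Rbfox3, and 4904 control and 2722 CFA cells were named as 1 of 9 non-neuronal types from panels of their markers. Neurons were split into 8 classes: PEP1 (Calca and Tac1, little Nefh), PEP-Nefh (Calca and Tac1 with Nefh), PEP2 (Sst and Nppb), NP1 (Mrgprd), NP2 (Mrgpra3), cLTMR (C-fibre low-threshold mechanoreceptors, Tafa4 with P2ry1), cold (Trpm8) and NF (Nefh with little Calca). The types were myelinating and non-myelinating Schwann cells (mySC, nmSC), satellite glial cells (SGC), oligodendrocyte-like cells (OLC), immune cells (IC), fibroblasts (FB), endothelial cells (EC), mural cells and erythroid cells. The neuron classes held 16 to 335 control and 7 to 173 CFA neurons, PEP1 being the largest and PEP2 or PEP-Nefh the smallest, and the types held 40 to 2283 control and 24 to 1324 CFA cells, mySC being the largest. Neurons were deeply sampled, with median totals of 43341 and 35401 UMIs in control and CFA, and the types were shallow, with medians between 804 and 2453 UMIs. Levels are given as counts per 1000000 UMIs of a class (CPM) with exact 95% Poisson intervals, which cover counting error only, as do all intervals given here.

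Long noncoding RNAs act as RNA and are not translated. Bc1 is a small RNA made by RNA polymerase III that is carried into neuronal processes and restrains translation there. Meg3, Rian and Mirg lie in this order on the maternally expressed strand of the imprinted Dlk1-Dio3 region, and Rian and Mirg host small nucleolar RNAs and microRNAs. Malat1 is retained in nuclear speckles, and Neat1 is the scaffold of nuclear paraspeckles. Miat (Gomafu) is a nuclear RNA of neurons, and Snhg11 is a small nucleolar RNA host gene.

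Positions come from GENCODE M21 on GRCm38, in which all 8 were found. Bc1 is on chromosome 7 from 144914470 to 144914637 on the plus strand and consists of 1 exon of 168 bases. GENCODE M21 types it as a long intergenic noncoding RNA, although at this length it is a small RNA. Its sequence is shown because it holds a stretch of 23 A, in capitals, to which oligo-dT can bind inside the RNA, and because a pseudogene row, Bc1-ps1 (chromosome 7 from 93660238 to 93660555, minus strand), resembles it in 126 of 167 aligned positions. The matching part of Bc1-ps1, from position 119 to 282 of its transcript, has a longest run of 8 A, also in capitals.

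Bc1: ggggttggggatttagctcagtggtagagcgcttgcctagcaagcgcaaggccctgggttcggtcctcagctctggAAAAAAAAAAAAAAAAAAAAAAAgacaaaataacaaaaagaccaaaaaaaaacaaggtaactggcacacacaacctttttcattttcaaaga
Bc1-ps1: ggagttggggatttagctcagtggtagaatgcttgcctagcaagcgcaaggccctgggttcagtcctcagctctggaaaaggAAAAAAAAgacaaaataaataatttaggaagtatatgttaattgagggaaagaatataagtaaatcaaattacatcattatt

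The pseudogene row held 3 UMIs in neurons of each library against 37544 and 31482 for Bc1, and 0 UMIs in the named non-neuronal cells. It therefore took 0.00799% and 0.00953% of the summed counts of both rows in neurons, although reads that both loci share could have been dropped or assigned by a rule the sources used here do not give.

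Malat1 (chromosome 19 from 5795690 to 5802672, minus strand) and Neat1 (chromosome 19 from 5824708 to 5845478, minus strand) are neighbours 22035 bases apart. Neat1 has a short polyadenylated transcript of 3004 bases and a long one of 20771 bases that begin at the same place, and gene counts do not separate them. The last 100 bases of each are printed because they are what beads with oligo-dT could meet. The short form has the polyadenylation signal AATAAA, in capitals, ending 14 bases before its end. The long form has no AATAAA in its last 100 bases and ends in an A-rich tract whose last run of at least 5 A is in capitals.

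Neat1-202, the short form: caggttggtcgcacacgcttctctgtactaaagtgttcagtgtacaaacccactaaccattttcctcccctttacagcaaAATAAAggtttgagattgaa
Neat1-201, the long form: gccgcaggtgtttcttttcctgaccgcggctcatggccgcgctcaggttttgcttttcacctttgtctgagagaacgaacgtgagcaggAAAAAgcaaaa

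Meg3 (chromosome 12 from 109541001 to 109571726), Rian (109603940–109661716) and Mirg (109729764–109749460) lie within 208460 bases on the plus strand. Rian holds 4 annotated microRNA and 13 small nucleolar RNA genes, and Mirg holds 15 microRNA genes. RefSeq promoter windows of GRCm38.p6, 250 bases before to 50 bases after a start, were available for 7 of the 8 RNAs. A Meg3 window, chr12:109540746-109541045, plus strand, is printed because the 3 RNAs of this region shared the pattern across neuron classes described below. It holds the letters TGACGTCA, the cyclic AMP response element, in capitals and 57 bases before the start. Another Meg3 window, chr12:109545148-109545447, does not hold these letters. On either strand they occur in 588 of 32851 windows (1.79%), and they were in no window of the other members, Rian and Mirg included. The match is a description of the sequence and not a measured site.

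Meg3 promoter: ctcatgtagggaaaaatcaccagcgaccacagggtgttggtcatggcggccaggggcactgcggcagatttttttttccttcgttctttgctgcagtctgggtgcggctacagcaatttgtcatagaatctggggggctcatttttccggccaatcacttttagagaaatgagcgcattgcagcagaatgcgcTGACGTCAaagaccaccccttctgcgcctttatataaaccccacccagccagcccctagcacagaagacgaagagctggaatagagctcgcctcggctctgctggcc

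Miat lies on chromosome 5 from 112213228 to 112229395 (minus strand), and Snhg11 on chromosome 2 from 158375638 to 158386145 (plus strand), where GENCODE M21 types it as protein coding. Meg3, Malat1 and Miat each overlap an annotated gene on the opposite strand (Gm26906, Gm37376 and Gm26953). How strand entered the counting was not given in the sources used here, so reads of these pairs may not have been told apart.

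In CPM, neurons had less Neat1 and Malat1 than every non-neuronal type, and more of the other members than nearly every type. CPM is a share of the UMIs of a class. It does not give molecules per cell, and neurons had far larger totals. A member was called neuron-restricted when its CPM over all neurons was at least 4 times that in every type of at least 50 cells in both libraries, and ubiquitous when its CPM in every nucleated type of that size was at least 1/4 of that in neurons. By these rules 0 of 8 members were neuron-restricted, against 3.28% of the 14369 genes with at least 100 counts, and 3 of 8 (Bc1, Malat1 and Neat1) were ubiquitous, against 30.8% of those genes. The remaining 5, Meg3, Snhg11, Miat, Rian and Mirg, were intermediate.

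**Figure D1:**
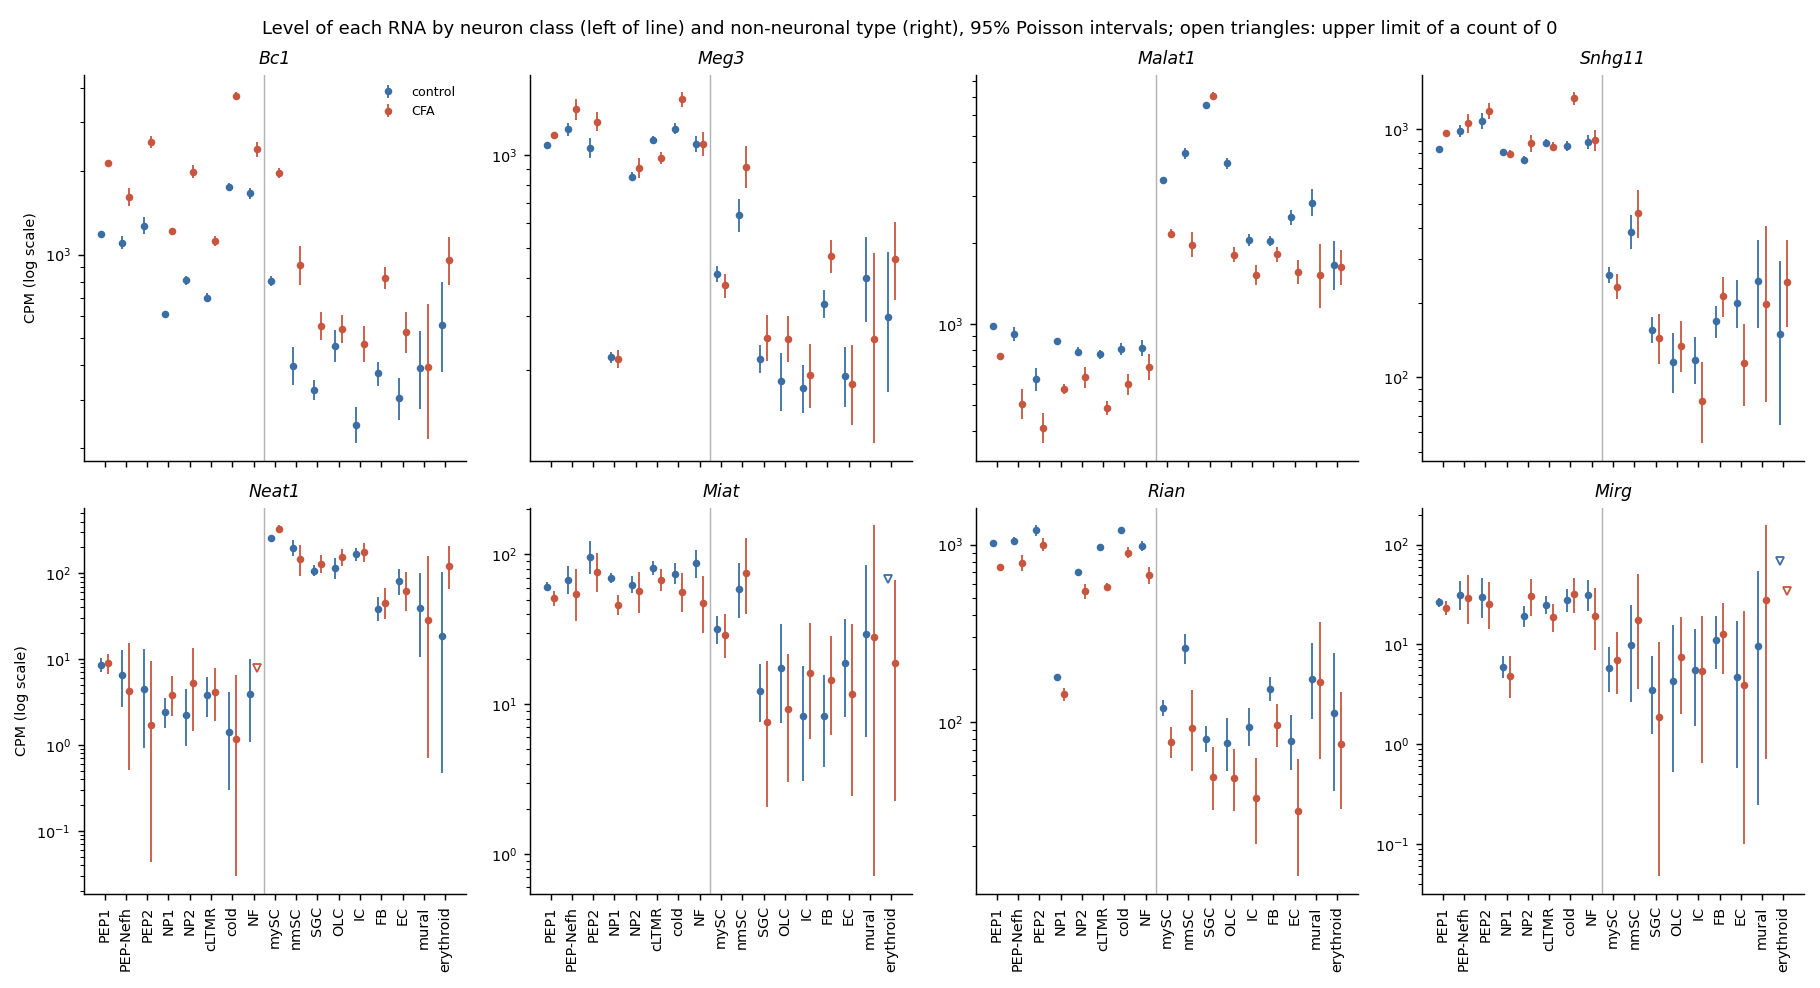
Level of the 8 long noncoding RNAs in CPM on a log axis, in 8 neuron classes (left of the grey line) and 9 non-neuronal types (right), for the control (blue) and the CFA library (red), with exact 95% Poisson intervals. Open triangles give the upper limit where the count was 0. Neat1 and Malat1 stand higher on the right of the line and the other members mostly on the left. Among those others the sides overlap, as for Bc1 in mySC and for Meg3 and Miat in nmSC. NP1 stands apart from the other neuron classes for Meg3, Rian and Mirg.

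Neat1, the paraspeckle RNA, made up very little of the RNA counted in neurons. It was at 5.30 CPM (4.60–6.08) in control neurons and at 6.07 CPM (4.95–7.37) in CFA neurons. In mySC it was at 257 and 330 CPM, its highest level in both libraries, and in FB, the lowest nucleated type of at least 50 cells, at 38.7 and 45.4 CPM. In CPM every such type was thus at least 7 times above neurons (731% of the neuronal level in FB of the control, 4842% in mySC). Of all Neat1 counts in kept cells, 12.4% and 10.8% lay in neurons, which held 80.2% and 77.6% of all UMIs. Neurons were 835 of 6695 kept control cells and 424 of 3661 kept CFA cells. As raw counts, the control held 205 Neat1 UMIs in 835 neurons, 705 in 2283 mySC and 42 in 586 FB. Per cell, neurons were therefore not the lowest. PEP1 was the highest neuron class with 8.51 and 8.89 CPM, and the control interval of PEP1 (7.02–10.2) lay above that of NP1 (1.57–3.51). In CFA the intervals of NP1 and PEP1 did not overlap either, at 2.15 to 6.35 and 6.69 to 11.6 CPM. NF of the CFA library held 0 counts in 13 cells, where 3 counts would be 6.46 CPM.

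Malat1 was present everywhere and, in CPM, lowest in neurons. By raw counts, neurons held 50.3% and 43.7% of all Malat1 UMIs in kept cells. In the control these were 38302 UMIs in 835 neurons, against 11164 in 872 SGC, so neurons held more per cell. It was at 991 CPM (981–1000.5) in control and 674 CPM (661–686) in CFA neurons. SGC, the glia that wrap neuronal cell bodies, had the highest level, at 6492 CPM (6372–6613) and 7043 CPM (6818–7273). The lowest types of at least 50 cells were FB in the control library with 2036 CPM and IC in the CFA library with 1524 CPM. The 8 neuron classes ranged from 621 (PEP2) to 986 CPM (PEP1) in the control and from 411 (PEP2) to 758 CPM (PEP1) in the CFA library, with the same classes at both ends. SGC also had the highest median mitochondrial share (11.1% in both libraries, against 2.27% and 2.51% in neurons), and across SGC thinned to 500 UMIs Malat1 rose and fell with it, at Spearman rho of 0.468 and 0.453. In mySC the same rho was 0.106 and 0.103. The part of the mitochondrial share in the Malat1 level was not tested.

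Bc1 met the rule for a ubiquitous member narrowly, and through levels that, in types other than mySC, were not above those in erythroid cells beyond counting error. Neurons had 971 CPM (961–981) in the control and 1873 CPM (1852–1894) in the CFA library. In mySC it was nearly as high or higher, with 805 CPM (771–839) and 1971 CPM (1894–2049). The lowest type of at least 50 cells, IC, was at 25.1% and 25.5% of neurons, just inside the limit of 25%, while the 24 mural cells of CFA were at 21.04%. In the deeper cells (2000 UMIs in types, 10000 in neurons), with stricter filters or with doubled gate limits, Bc1 left the ubiquitous group and 2 members remained in it.

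Snhg11, Meg3, Rian, Miat and Mirg were higher in neurons than in most types, with nmSC the nearest type in most cases. The nmSC marker panel was also found in neurons, at 548 and 710 CPM. The 4 neuronal gate markers were at 267 and 198 CPM in nmSC, the highest of the nucleated types. The part of neuronal RNA in the nmSC levels was not tested. Snhg11 was at 865 and 958 CPM in neurons and at 387 and 459 CPM in nmSC, its highest type in both libraries. Meg3 was at 862 and 979 CPM in neurons and at 640 (565–723) and 918 CPM (780–1073) in nmSC, so that in the CFA library the nmSC interval held the neuronal level. Rian was at 761 and 595 CPM in neurons and at 260 and 92.96 CPM in nmSC. The other types had 76.0 to 175 CPM of Rian in the control and 31.4 to 169 CPM in the CFA library. Without nmSC, or with the deeper cells only, Rian met the rule for a neuron-restricted RNA and no other member did. The median nmSC total was 1020 UMIs in the control and 876 UMIs in CFA, below the limit of 2000 UMIs for the deeper cells. Whether enough nmSC remained at that limit to stay in the rule was not tested. These alternatives are therefore not counted as separate.

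Miat and Mirg were scarce. Miat was at 69.7 and 54.3 CPM in neurons, at 58.8 (37.7–87.6) and 75.5 CPM (40.2–129) in nmSC and at 12.2 and 7.56 CPM in SGC. The nmSC intervals held the neuronal level in both libraries. Mirg was at 20.7 CPM (19.3–22.2) and 19.9 CPM (17.9–22.2) in neurons, and all its counts in named non-neuronal cells came to 47 and 28 UMIs. At 5000 UMIs per cell, 14.03% and 9.11% of neurons had a Mirg UMI (52.6% and 45.3% at full depth). At full depth 0 of 40 and 0 of 80 erythroid cells had one, where 3 counts would be 55.9 and 28.1 CPM.

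Free neuronal RNA can put UMIs into other cells, so each member was set beside 12 neuronal genes that were not used in the gates (Stmn2, Uchl1, Sncg, Prph, Gap43, Tagln3, Rtn1, Scg2, Syt1, Stmn3, Nefl and Nefm). Over all named non-neuronal cells the median of these genes was 4.90% of the neuronal CPM (4.19% to 11.6%) for the control, while CFA had 2.81% (1.37% to 8.60%). All 8 members were above the highest of the 12 in both libraries. This is not particular to them. Over all 14369 genes the median log2 ratio of neurons to these cells was 0.17 and 0.14, so the median gene was above it too. Rian was the nearest, at 15.3% and 11.2%, followed by Snhg11 at 23.6% and 20.0%. By type the picture was less even. In SGC, 3 of 8 members exceeded the highest of the 12, which there was Sncg at 25.6% and 28.9%. In OLC, 6 of 8 members did so in both libraries. For these counts the share over all genes was not computed.

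**Figure D2:**
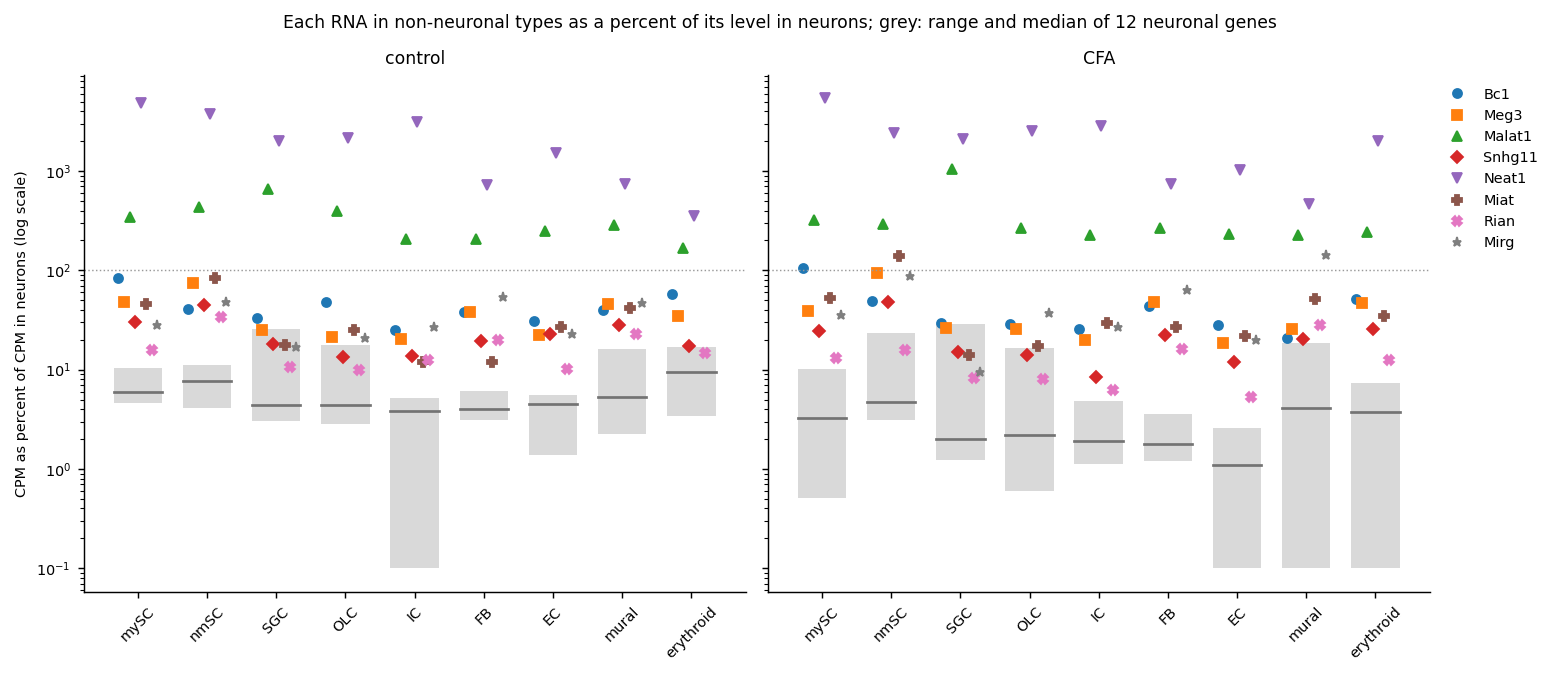
CPM of each RNA in 9 non-neuronal types as a percentage of its CPM in neurons (log axis) for the control (left) and CFA (right), with the range (grey box, drawn from 0.1 where the lowest was smaller) and median (grey line) of 12 neuronal genes not used in the gates. The dotted line marks the neuronal level, and values of 0 are not drawn. Neat1 and Malat1 lie above the dotted line in every type, and the other members lie between the box and the line in most types.

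Erythroid cells, which should lack neuronal RNA, gave a second background, itself not free of RNA of other cells. In control and CFA they held 447 and 112 CPM of the neuronal gate markers. Of the mySC panel they held 13208 and 5962 CPM. Haemoglobin RNAs and Alas2 took 39.5% and 38.9% of their UMIs, so the remainder was other RNA, and the type held only 40 and 80 cells. That share lowers the CPM of every other RNA in erythroid cells and raises ratios to them. The ratios were not recomputed without it. Meg3 stood at 298 CPM (16 counts) and 459 CPM (49 counts) there, and only nmSC and neurons had intervals of the ratio to erythroid cells above 1 in both libraries. For Bc1, at 559 and 955 CPM in erythroid cells, only mySC and neurons did. For Snhg11 these were nmSC and neurons, and for Rian neurons alone in both libraries, with nmSC in the control only. Malat1 was above the erythroid level of 1658 and 1629 CPM in mySC, nmSC and SGC in both libraries, and Neat1 in mySC. Some of these calls were narrow. The lower log2 limit was 0.008 for Bc1 in control mySC and 0.006 for Malat1 in CFA nmSC. For Meg3 in nmSC it was 0.38 and 0.53, for Snhg11 in nmSC 0.36 and 0.26, and for Bc1 in neurons 0.28 and 0.69. Without haemoglobin in the erythroid totals all these limits would be lower and could fall below 0. These calls therefore depend on that share. The levels of Meg3, Bc1, Snhg11 and Rian in the other types were not above this background beyond counting error and are not read as expression. For nmSC, the part of neuronal RNA was not tested here either. At 500 UMIs per cell the share of cells with a Meg3 UMI was 20.0% and 20.3% in nmSC against 10.3% and 12.5% in erythroid cells (30.4% and 28.8% against 17.5% and 25% without thinning), at median totals of 1020 and 876 UMIs in nmSC and 1040 and 1164 UMIs in erythroid cells.

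Among the neuron classes, NP1 nociceptors, which express Mrgprd and are nonpeptidergic, had far less Meg3, Rian and Mirg than any other class. Meg3 was at 220 CPM (212–229) in control NP1 and at 217 CPM (203–232) in CFA NP1, against 1072 and 1151 CPM in the other 7 classes together. Rian was at 179 CPM (172–188) and 143 CPM (132–156), against 983 and 721 CPM. Mirg was at 5.99 CPM (65 counts) and 4.87 CPM (19 counts), against 25.9 and 23.8 CPM. The other classes were thus 4.86-fold and 5.30-fold above NP1 for Meg3, 5.48-fold and 5.04-fold for Rian, and 4.32-fold and 4.88-fold for Mirg. A CPM in NP1 of at most 1/4 of that in the other classes was found for these 3 of the 8 members and for 8.15% of 12951 genes.

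NP1 was the lowest of the 8 classes for each of the 3 RNAs in both libraries. The next lowest class was NP2 (Mrgpra3, itch neurons) for Meg3, at 853 and 907 CPM, and for Rian, at 697 and 544 CPM. Their intervals lay far above those of NP1. For Mirg the next lowest was NP2 in the control (19.4 CPM, 15.1 to 24.5) and cLTMR in the CFA library (18.7 CPM, 13.4 to 25.4). Cold neurons (Trpm8) had the highest Meg3 in both libraries, with 1222 CPM (1175–1270) and 1521 CPM (1439–1606). The intervals of PEP-Nefh, the next class (1154 to 1278 and 1306 to 1522 CPM), overlapped those of the cold neurons. Rian was highest in cold neurons of the control (1205 CPM, 1158 to 1253) and in PEP2 of the CFA library (998 CPM, 919 to 1082), and cold and PEP2 neurons overlapped in both libraries.

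The remaining members differed less between NP1 and the other classes. Snhg11 was at 811 and 796 CPM in NP1 against 850 and 979 CPM in the others. Miat was at 69.5 and 46.2 CPM against 67.7 and 56.3 CPM, and Malat1 at 862 and 572 CPM against 891 and 656 CPM. Bc1 was lower in NP1, at 610 and 1216 CPM against 1126 and 2061 CPM, or 1.85-fold and 1.70-fold below the others. Over the 8 classes Bc1 was highest in cold neurons, at 1758 CPM (1702–1816) and 3729 CPM (3600–3861). It was lowest in NP1 in the control and in cLTMR in the CFA library (1120 CPM, 1077 to 1166). The range of Snhg11 over the classes was 1.44-fold in the control and 1.68-fold in CFA, and that of Miat 1.57-fold and 1.66-fold, against 5.55-fold and 7.0-fold for Meg3.

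Single NP1 neurons were spread widely. Of 153 control NP1 neurons with at least 10000 UMIs, 90 (58.8%) had less than 100 CPM of Meg3, 27 had 100 to 400 CPM and 36 (23.5%) had at least 400 CPM. Of 60 CFA NP1 neurons, 35 (58.3%), 9 and 16 (26.7%) fell into the same ranges. In the other 7 classes 1 of 332 control PEP1 neurons and 2 of 13 CFA NF neurons had less than 100 CPM, and no other neuron did. These limits were set after the values were seen, they mark ranges and not cell types, and 14 control and 7 CFA NP1 neurons lay near the upper one, from 320 to 500 CPM. The low ranges of Meg3 and Rian held largely the same NP1 neurons. Of those below 100 CPM of Meg3, 89 of 90 control and 35 of 35 CFA neurons were also below 100 CPM of Rian. In all, 100 control and 38 CFA NP1 neurons were below 100 CPM of Rian. The high ranges overlapped less. Of those with at least 400 CPM of Meg3, 27 of 36 control and 7 of 16 CFA neurons also reached 400 CPM of Rian.

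**Figure D3:**
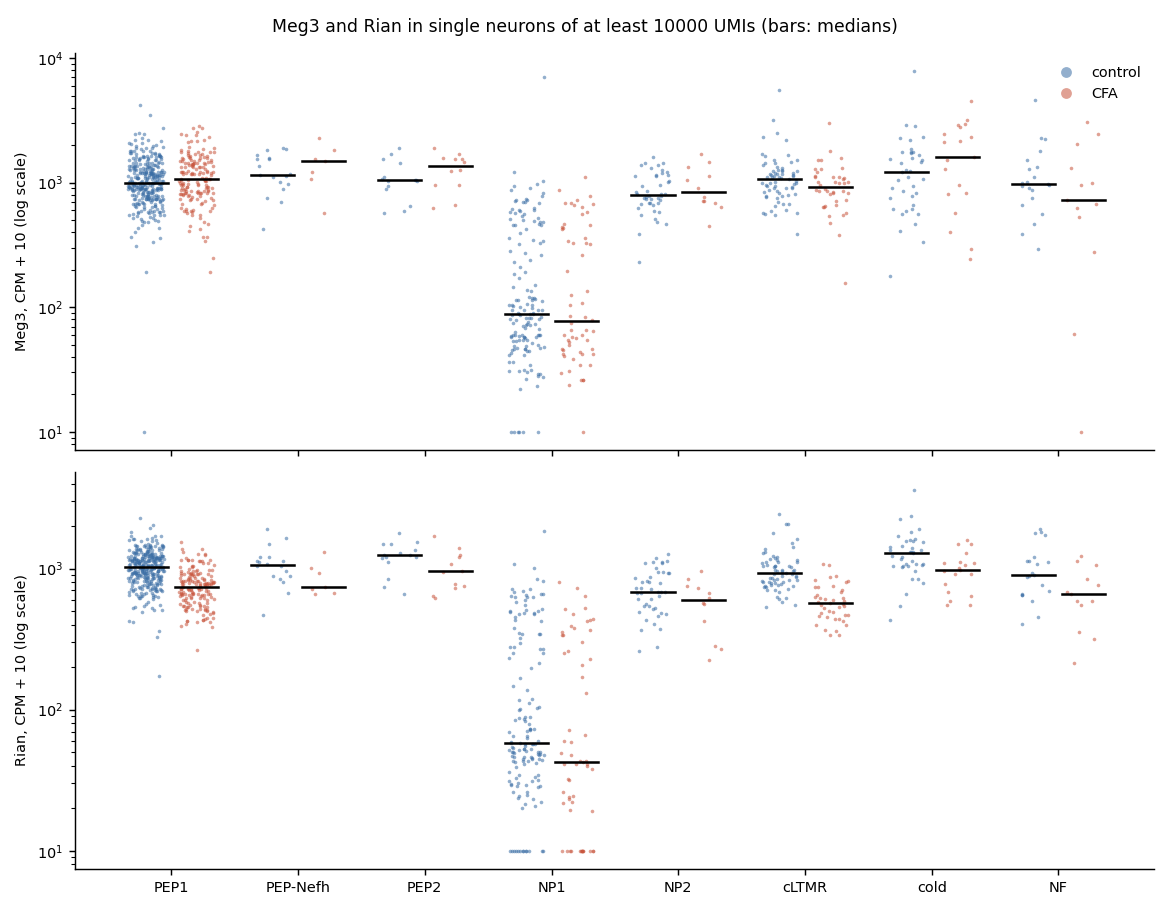
CPM plus 10 on a log axis of Meg3 (top) and Rian (bottom) in single neurons with at least 10000 UMIs, by neuron class, for control (blue) and CFA (red), with black bars at the medians. In NP1 most points lie near 100 or below and a smaller set lies at the level of the other classes, with median Meg3 of 79.0 and 67.4 CPM in NP1 against 988 and 1064 CPM in PEP1.

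Within NP1, Meg3 and Rian moved together from cell to cell, at Spearman rho of 0.635 (153 control neurons) and 0.662 (60 CFA neurons) after thinning to 10000 UMIs. A second random thinning of the same neurons gave 0.621 and 0.776. In PEP1 rho was 0.271 and 0.143, and 0.228 and 0.182 in the second thinning. In the first thinning rho was also high in NP2 (0.602 and 0.879), cold (0.621 and 0.722), NF (0.595 and 0.494) and PEP2 neurons (0.457 and 0.51), with 12 to 44 neurons each. It was 0.336 and 0.128 in cLTMR, and 0.104 and 0.449 in PEP-Nefh neurons. Rian was not the closest partner everywhere. In the second thinning, rho of Meg3 with Snhg11 was 0.399 and 0.508 in PEP1 and 0.642 and 0.437 in cLTMR. These were above the values with Rian in the same thinning (0.348 and 0.093 in cLTMR). In NP1 rho of Meg3 with Snhg11 was -0.083 and 0.233. The neurons of a library share that library and its free RNA, so these values are descriptive. NP1 neurons with more Meg3 also had more Calca, the gene of the peptide CGRP, at rho of 0.415 and 0.505, and somewhat more Tac1, the gene of substance P, at 0.268 and 0.456. In NP2 the rho of Meg3 with Calca was 0.501 and 0.798, in cold neurons 0.113 and 0.156, and in PEP1 -0.138 and -0.056. Its sign differed between the libraries in NF (0.513 and -0.124), cLTMR (0.272 and -0.135), PEP2 (-0.103 and 0.544) and PEP-Nefh (-0.317 and 0.536). Mrgprd, which set the gate, had rho of -0.155 and -0.194 with Meg3, and the total of UMIs had -0.085 and -0.149.

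By range, the median NP1 neuron below 100 CPM of Meg3 had 884 CPM of Calca in the control and 452 CPM in CFA, and that with at least 400 CPM had 1308 and 2057 CPM. The NP1 gate did not exclude neurons by Calca or Tac1. Markers of NP1 were lower in the high range. Median Mrgprd went from 556 to 445 CPM in the control and from 522 to 349 CPM in CFA. Median Lpar3, a lysophosphatidic acid receptor gene, went from 614 to 303 CPM and from 688 to 378 CPM, and median Cd55 from 2026 to 1658 CPM and from 1800 to 1124 CPM. The median total was 75536 UMIs in the low and 64954 UMIs in the high range of the control, and 63597 and 57973 UMIs in CFA, so neurons with more Meg3 did not hold more UMIs. Median Snhg11 was 825 and 791 CPM in the low and high ranges of the control and 789 and 906 CPM in CFA.

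In the CFA library, Bc1 was higher than in the control library in every neuron class and in nearly every type. Rian, Malat1 and Miat were lower in every neuron class, and the other members were mixed. The question these libraries address is which RNAs of TG cells differ after orofacial inflammation. Over all neurons Bc1 went from 971 to 1873 CPM, a log2 ratio of 0.95 (0.93–0.97). It was the only member at least 1.5-fold higher (1 of 8, against 2.99% of 12951 genes), and 0 of 8 were at least 1.5-fold lower, against 3.27%. Malat1 came near that limit with a log2 ratio of -0.56 (-0.59 to -0.53), and passed it at -0.76 when every neuron was weighted equally.

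**Figure D4:**
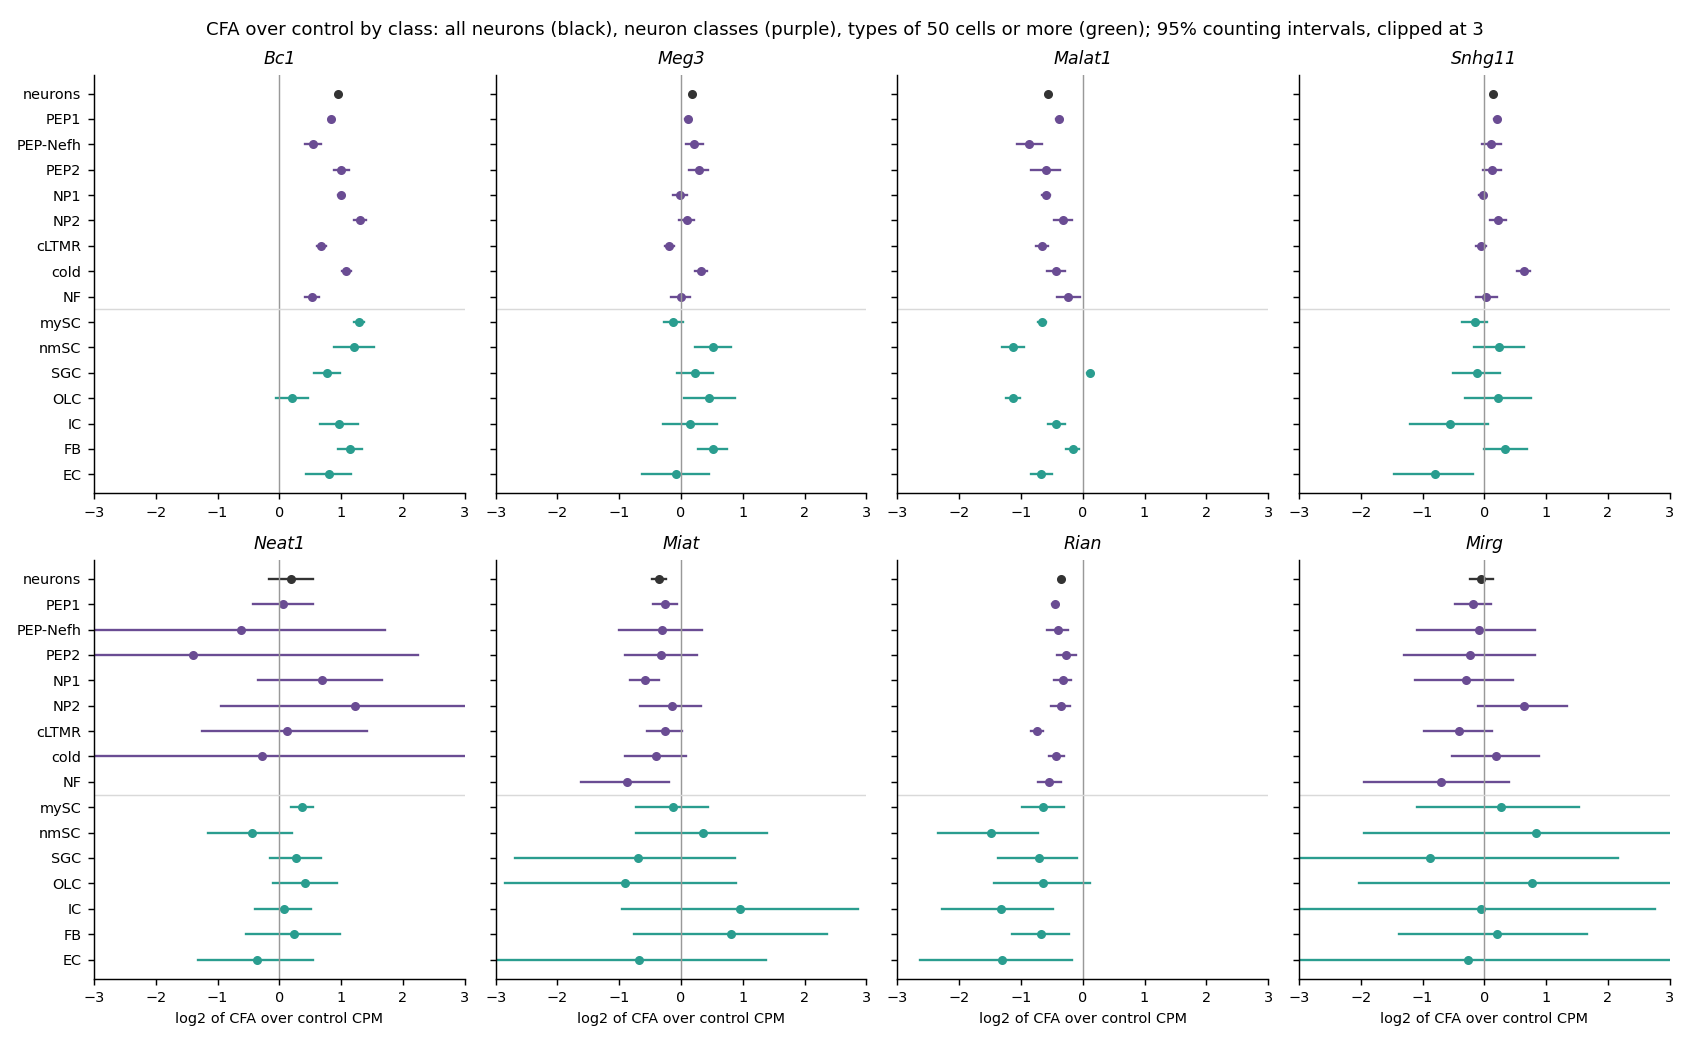
log2 ratio of CFA over control CPM for each RNA in all neurons (black), 8 neuron classes (purple) and 7 non-neuronal types with at least 50 cells in both libraries (green), with conditional exact 95% intervals drawn to the axis ends at 3. Bc1 lies right of 0 in every class, Rian lies left of it in every class, and Malat1 lies left of it except in SGC.

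Bc1 was higher in CFA in 8 of 8 neuron classes, which held for 4.01% of 10157 genes, with log2 ratios from 0.53 in NF to 1.3 in NP2. It was also higher in 7 of 7 types, from 0.20 in OLC (-0.06 to 0.46) to 1.29 in mySC (1.21–1.38), and in erythroid cells it went from 559 to 955 CPM. In types other than mySC, Bc1 was not above the erythroid level, so those ratios are not read as changes in expression. For counts of types, here and below, the share over all genes was not computed. No neuron class had overlapping Bc1 intervals between the libraries. The share of all genes for which this holds was not computed, and the intervals cover counting error only. Of the genes of 8 proteins described as binding BC1, 0 were 1.5-fold higher in neurons, against 2.99% of all genes, and 0 were 1.5-fold lower, against 3.27%, with a median log2 ratio of 0.10 against -0.0048 over all 12951 genes. Pura, which encodes a protein that carries RNA into dendrites, had the largest of these, from 207 to 279 CPM (log2 0.43, 0.38 to 0.48), and Pabpc1, the poly(A)-binding protein gene, went from 232 to 215 CPM.

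Rian, Malat1 and Miat were lower in CFA in 8 of 8 neuron classes, 3 of the 7 members that could be compared in every class, against 5.39% of 10157 genes. Rian went from 761 to 595 CPM over all neurons (log2 -0.35, -0.39 to -0.32), with the lowest ratio in cLTMR, from 963 to 576 CPM (log2 -0.74, -0.84 to -0.65). Its interval excluded 0 in all 8 neuron classes, a rule for which the share over all genes was not computed. It was lower in 7 of 7 types as well, from -0.64 in mySC to -1.48 in nmSC, where it went from 260 to 92.96 CPM, with intervals below 0 in 6 of 7 (all but OLC). No type was above the erythroid level of Rian in both libraries, so the ratios in types are not read as changes in expression. These sizes depended on the processing: over the alternatives the log2 ratio ranged from -1.39 to -0.48 in mySC and from -1.26 to -0.15 in SGC, with both the lowest mySC value and the smallest SGC difference in cells of at least 2000 UMIs. Over the same named non-neuronal cells the 12 neuronal reference genes together went from 1406 to 834 CPM, while in neurons they were at 21881 and 20850 CPM. Rian there went from 117 to 66.6 CPM, and the part of free neuronal RNA in this was not tested.

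Malat1 was lower in CFA in 8 of 8 neuron classes, from -0.23 in NF (-0.42 to -0.04) to -0.86 in PEP-Nefh, and in 6 of 7 types, down to -1.13 in OLC and nmSC. SGC was the exception, at 0.12 (0.06–0.17). That value turned to -0.08 with the stricter filters and to -0.05 with doubled gate limits. In IC and FB Malat1 was not above the erythroid level in either library, and in OLC and EC it was not in CFA. The ratios in these types are not read as changes in expression. Neurons had less RNA of the mySC marker panel in CFA (62.6 CPM) than in the control (147 CPM), and median mitochondrial shares of 2.51% and 2.27%. Their part in the Malat1 ratios was not tested. Miat went from 69.7 to 54.3 CPM in neurons (log2 -0.36, -0.47 to -0.25), with intervals below 0 in PEP1, NP1 and NF.

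Meg3 and Snhg11 were slightly higher over all CFA neurons, with log2 ratios of 0.18 (0.16–0.21) and 0.15 (0.12–0.17). By class they were mixed. Meg3 ranged from -0.19 in cLTMR (-0.26 to -0.11), where it went from 1118 to 981 CPM, to 0.32 in cold neurons (0.22–0.41). In NP1 it was level, at -0.02 (-0.14 to 0.09). Snhg11 ranged from -0.05 in cLTMR to 0.63 in cold neurons (0.53–0.74), where it went from 860 to 1335 CPM. Neat1 in neurons had a log2 ratio of 0.19 (-0.16 to 0.54) and Mirg of -0.05 (-0.24 to 0.13), from 205 and 102 counts of Neat1 and 799 and 335 of Mirg, so a difference of these sizes was not detectable at this depth. In mySC Neat1 went from 257 to 330 CPM (log2 0.36, 0.18 to 0.54).

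Although Rian and Meg3 lie 32213 bases apart on the same strand, their ratio differed between the libraries in every neuron class. Rian made up 46.9% (46.5%–47.3%) of the summed Rian and Meg3 counts of control neurons and 37.8% (37.2%–38.4%) of those of CFA neurons. The share was lower in CFA in 8 of 8 neuron classes without overlap of the intervals, from 44.9% to 39.7% in NP1 and from 49.6% to 37.1% in cold neurons. NP1, which had little of either RNA, thus had a share close to that of the other classes (44.9% against 44.99% to 53.2% in the control). In named non-neuronal cells the share was 26.7% and 16.0%, lower than in neurons of the same library, and erythroid cells had 27.3% (10.7%–50.2%) and 14.04% (6.26%–25.8%). It was lower in CFA in 8 of 9 types, 5 of them without overlap, mural cells being the exception with 24 cells in CFA. For how many other gene pairs such counts of classes or types would hold was not computed. The intervals cover counting error only, and all classes and types of a condition came from the same library. The classes and types may therefore repeat a single difference between the libraries and are not counted as separate.

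**Figure D5:**
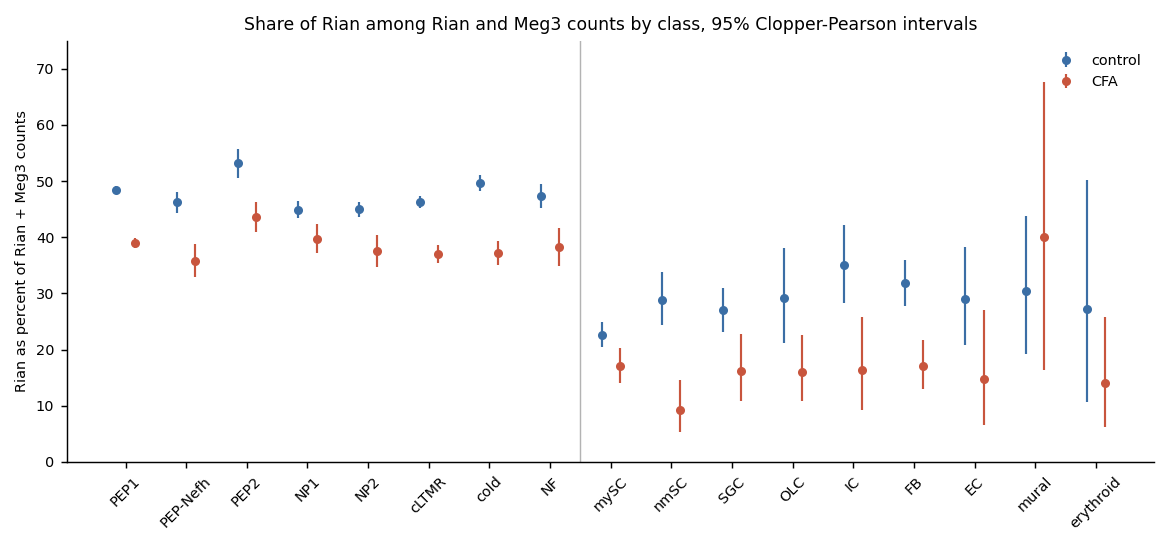
Rian as a percentage of the summed Rian and Meg3 counts, by neuron class (left of the grey line) and non-neuronal type (right), for control (blue) and CFA (red), with 95% Clopper-Pearson intervals. In each of the 8 neuron classes the CFA value lies below the control value without overlap, and the types lie below the neurons of the same library except mural cells in CFA (40.0%, 24 cells).

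Most other long noncoding RNAs of a list of 35 had lower CPM in neurons. Of the 29 with at least 100 counts, 8 were higher and 21 lower in neurons than in the named non-neuronal cells in both libraries, with median log2 ratios of -0.95 and -1.05. Over all 14369 genes 7241 were higher and 6081 lower, with medians of 0.17 and 0.14. Cdr1os, the transcript that gives rise to the circular RNA Cdr1as, was highest at the neuronal end, at 49.5 CPM in neurons of each library against 6.35 and 5.21 CPM in the others. The non-neuronal end was marked by Sox2ot, which overlaps the gene of the glial transcription factor Sox2, at 0.802 and 0.654 CPM against 78.0 and 129 CPM. Between the libraries, 0 of 23 with enough neuronal counts were 1.5-fold higher in CFA neurons, against 2.99% of all genes tested, and 2 were 1.5-fold lower, against 3.27%. Snhg1, a small nucleolar RNA host gene, was one of these, from 24.9 to 15.8 CPM (log2 -0.65, -0.85 to -0.46).

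Of 6 protein genes of the Dlk1-Dio3 region and its flanks, 4 had at least 100 counts, and 3 of these were higher in neurons in both libraries. The exception was Dlk1, a Notch ligand homologue, at 0.129 and 0.238 CPM in neurons against 6.996 and 17.4 CPM in the others. Wars, a tRNA synthetase gene, was at 51.4 and 48.2 CPM in NP1 and 50.03 and 37.5 CPM in PEP1, and Ppp2r5c, a phosphatase subunit gene, at 155 and 198 CPM in NP1 and 121 and 133 CPM in PEP1. The low level of NP1 was not seen in these, while Begain was lower in NP1, at 1.66 and 2.05 CPM against 5.35 and 4.85 CPM. Of 8 genes of paraspeckle proteins, 3 were higher and 4 lower in neurons in both libraries, with medians of -0.09 and -0.30. Nono, a core paraspeckle protein gene, was at 170 and 160 CPM in neurons against 164 and 156 CPM in the others. Of the 8 genes of BC1-binding proteins, 2 were higher and 6 lower in neurons. Over all 14369 genes 7241 were higher and 6081 lower. These counts go by direction alone. Of the genes counted as higher, Begain, Nono, Pspc1 and Pura had intervals across 0 in both libraries. Pura was level, at log2 0.004 (-0.07 to 0.08) and 0.01 (-0.08 to 0.11).

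Profiles over the 16 classes with at least 10 cells in each library (32 profiles) were compared with those of 8571 genes by Pearson's r of log2(CPM + 1). The profiles share libraries and depth, so r is a description. Neat1 was most like Egr2, a transcription factor of myelinating Schwann cells (r = 0.935), Qk (0.924) and Kdm3a (0.924). Malat1 was most like mt-Rnr1, the mitochondrial 12S ribosomal RNA (0.897), Acot1 (0.893) and Ednrb (0.893), a gene of the SGC panel. Meg3 was most like Gng4 (0.898), Rian (0.877) and Cacna2d2 (0.852).

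Rian was most like Ndrg4 (0.921), Mllt11 (0.920) and Prkar1b (0.914), and Snhg11 like Panx2 (0.95), Kif5a, a neuronal kinesin (0.949), and Ppp1r1c (0.940). Miat was nearest to Pgm2l1 (0.916), Agap3 (0.897) and Cul2 (0.889), and Mirg to Uqcc1 (0.884), Tmed8 (0.860) and 0610010F05Rik (0.852). Bc1 had the weakest matches, with Sez6 (0.813), Psmd4 (0.775) and Cfl2 (0.769). Among the members, Neat1 and Malat1 were alike (0.842), while r was -0.825 between Neat1 and Rian.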

How the data were processed

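Single cells of 1 control and 1 CFA library were used as deposited. The authors deposited whole-number UMI counts per gene and cell, without normalization, from BD Rhapsody libraries, and the submitters' processing notes name fastp and GRCm38. The annotation and the use of strand in counting are not given in the sources used here. The study's quality sheet lists more multiply aligned reads in the control than in the CFA library.

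Cells were kept from 150 genes upwards and up to 25% mitochondrial counts. Neurons needed 10 UMIs of the 4 neuronal markers and 1500 CPM of them, and other cells fewer than 5 UMIs. A neuron class needed 5 UMIs of its marker (10 for Sst and Nppb together, 100 for Calca with 50 for Tac1, 20 for Nefh) and no marker of another class, which left 131 control and 84 CFA neurons in no class. A type needed 5 UMIs of its panel and 5 times the enrichment of the next panel. No doublet caller was run, and non-neuronal cells with mixed panels stayed unnamed. The gates did not screen neurons by these panels. In CFA the SGC panel was at 103 CPM in NF neurons, against 14.9 CPM in PEP1, the next neuron class. The libraries shared 27 cell labels, which are numbers and do not mark shared cells.

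For each class the counts of its cells were added within a library. Intervals at 95% were Clopper-Pearson for shares, conditional exact binomial for ratios and exact Poisson for CPM. On neuron counts simulated with Poisson error alone, the ratio intervals held the true ratio for 95.4% of 12751 unchanged and 95.5% of 200 changed genes. The simulation shared the error model of the intervals. It therefore checks the calculation only and says nothing about spread between cells, mice or libraries. For shares of cells, neurons were thinned to 5000 and others to 500 UMIs. Of the 39098 symbols 96.5% matched GENCODE M21. The members, gene lists and limits were chosen with earlier results of these data known. Genes named are the members, the 3 most similar profiles of each among genes with at least 1000 counts, and examples from the lists. Python 3.11.15, numpy 2.4.6, scipy 1.17.1, pandas 2.3.3, Biopython 1.88 and matplotlib 3.10.9 were used. The alternatives tried were other filters, totals, weights, gate limits, depths and class mixes, and centring on the median gene with at least 50 counts.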

Additional observations from a re-analysis of the deposited data

Results flagged for a closer look

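Meg3 in cLTMR was lower in CFA than in the control library, with a log2 ratio of -0.19 (-0.26 to -0.11), while its interval lay above 0 in 7 of the 15 classes compared (PEP1, PEP-Nefh, PEP2, cold, nmSC, OLC and FB). Malat1 in SGC was higher in CFA, with a log2 ratio of 0.12 (0.06 to 0.17), while it was lower in the other 14 classes. Snhg11 in EC was lower in CFA, with a log2 ratio of -0.80 (-1.47 to -0.18) from 84 and 29 counts, while its interval lay above 0 in PEP1, NP2 and cold neurons. Snhg11 in EC, Meg3 in OLC and FB, and Malat1 in IC and FB were not above the erythroid level in either library. Malat1 in OLC and EC was not above it in CFA. These ratios are not read as changes in expression. In EC the 12 neuronal reference genes together went from 970 to 287 CPM, and the part of free neuronal RNA was not tested. The differences between classes were not tested, since each condition was 1 library.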

How the results depend on the processing

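No paired analysis was possible because each condition had 1 library. The number of neuron-restricted members went from 0 to 1 (Rian) with cells of at least 2000 UMIs (neurons 10000) and, as an alternative chosen after seeing the data, to 1 (Rian) without nmSC. It stayed at 0 in the other 8 alternatives. The median nmSC total was below 2000 UMIs in both libraries, so both alternatives with Rian may have left nmSC out. They are not counted as separate. The number of ubiquitous members was 3 or 2 throughout, Bc1 leaving in 3 of 9 alternatives. Bc1 remained the only member at least 1.5-fold higher in CFA neurons in all 11 alternatives, with log2 ratios of 0.90 to 0.97. The number at least 1.5-fold lower went from 0 to 1 (Malat1) when every cell was weighted equally. Of 566 recomputed log2 ratios, 505 stayed within the interval of the value reported, 58 moved outside it and 3 reversed. Malat1 in SGC turned from 0.12 to -0.0764 with 300 genes and 10% mitochondrial counts and to -0.0484 with doubled gate limits. Meg3 over all non-neuronal cells turned from 0.13 to -0.15 with cells of at least 2000 UMIs. The cause was not tested. Of 48 shares of cells with a UMI recomputed without thinning or at 2000 UMIs, 47 moved outside their interval. Depth limits Mirg and Miat in the types, where most classes held under 25 counts.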
